A study of Homo sapiens with 9 samples.

Results

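The data described here are the RNA levels of POGLUT3 and of 8 related enzymes (POGLUT1, POGLUT2, POFUT1, POFUT2, EOGT, LFNG, MFNG and RFNG) in parental and transformed MCF10A cells. The 9 genes were taken by symbol from a table of 60199 gene symbols, and all 9 were among the 15717 genes with enough counts to be tested. POGLUT3 was chosen by its counts in these libraries, which were nearly lost in the MC26 line and kept in the M1B26 line, and the other 8 were chosen by their related function, so that the POGLUT3 values are a description and carry no test. The question asked of the other 8 enzymes was whether they also moved.

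MCF10A is a non-malignant human mammary epithelial line that lacks CDKN2A. The untreated parental cells (MCF10A-CT, here CT) were compared with 2 derived lines, MC26 and M1B26, which grew in medium with added BMP2 and IL6. MC26 came from unsorted MCF10A cells after long exposure to both factors, and M1B26 from cells sorted for the BMP receptor BMPR1B, of which 3 soft-agar clones were picked and expanded with both factors. Both derived lines were labelled as transformed and CT as not transformed. Each line had 3 poly-A RNA libraries. The labels do not give separate cultures for the 3 libraries of a line, so p-values measure the spread between these libraries, which may be technical. Line, culture supplement and any batch that followed the line cannot be told apart.

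Total counts ran from 21425118 to 80076597 per library. No library held a count of CDKN2A or CDKN2B (0 counts). The 5 markers of basal mammary epithelium (KRT5, KRT6A, KRT14, KRT17 and TP63) were present in every line and summed to 7860 to 9930 CPM (counts scaled to a library of 1000000) in CT, 12700 to 16200 in the MC26 libraries and 8520 to 9100 in M1B26. Within this sum, log2 fold changes against CT in MC26 and M1B26 were 4.34 and 3.33 for KRT14 (adjusted p 8.75e-07 and 2.07e-06). They were 1.29 and 1.31 for TP63 (adjusted p 1.54e-06 and 9.36e-07) and 1.67 and 0.62 for KRT6A (adjusted p 6.76e-06 and 0.00285). KRT5 fell in M1B26 alone (-0.42, adjusted p 0.00435), and KRT17 passed in neither line. The 4 epithelial markers (EPCAM, CDH1, KRT8 and KRT18) summed to 969 to 1110 CPM in CT, 681 to 715 in the MC26 libraries and 944 to 1010 in M1B26, and all 4 fell in MC26 against CT. The 5 leukocyte markers, with CD3E at 0 throughout, summed to 7.03 to 11.1 CPM in CT, 9.75 to 17.9 in the MC26 libraries and 34.0 to 47.9 in M1B26, mostly through CD14 (log2 fold change 2.06 in M1B26 against CT, adjusted p 3.75e-05). The 6 fibroblast markers summed to 37.4 to 37.8 CPM in CT, 17.1 to 56.8 in the MC26 libraries and 28.5 to 39.7 in M1B26. In M1B26 against CT, LUM rose by 5.59 (adjusted p 7.88e-06) and COL1A1 by 0.98 (adjusted p 0.000163). DCN went the other way, from 29.03 to 13.97 CPM (-1.05, adjusted p 0.129), as did PDGFRB (-0.62, adjusted p 0.147). These falls did not pass, although the libraries did not overlap. COL3A1 and COL1A2 had too few counts to be tested. The 3 endothelial markers summed to 4.85 to 5.32 CPM in CT, 0.0995 to 0.541 in the MC26 libraries and 0.497 to 1.74 in M1B26, and PECAM1 fell by 4.21 in MC26 against CT (adjusted p 0.00014) and by 2.45 in M1B26 (adjusted p 0.000983). Whether these marker differences had a part in the results below was not tested. In such bulk RNA, fewer cells with a transcript and less transcript per cell cannot be told apart.

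Epidermal growth factor-like (EGF) repeats are small disulfide-bonded modules found in Notch receptors, their ligands, fibrillins and many other secreted proteins. In the endoplasmic reticulum, POGLUT enzymes attach O-glucose, POFUT1 attaches O-fucose and EOGT attaches O-linked N-acetylglucosamine to serines or threonines of properly folded EGF repeats, and in the Golgi the Fringe enzymes LFNG, MFNG and RFNG lengthen the O-fucose. These sugars are known for their roles in the folding and export of Notch and in the choice between its Delta and Jagged ligands, a pathway that helps set cell fate in the mammary epithelium.

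Among the 8 enzymes other than POGLUT3, 5 changed in MC26 against CT, 4 in M1B26 against CT and 4 in M1B26 against MC26 (adjusted p under 0.05, edgeR quasi-likelihood test). In MC26 against CT, POGLUT2, EOGT and LFNG rose and POGLUT1 and RFNG fell, where 38.7% of all tested genes changed (18.8% higher and 19.9% lower). In M1B26 against CT, POGLUT2, LFNG and RFNG rose and POGLUT1 fell, where 48.9% of all genes changed (25.2% higher and 23.7% lower). In M1B26 against MC26, RFNG was higher and POFUT1, EOGT and LFNG were lower, where 39.5% of all genes changed (21.2% higher and 18.4% lower). The median log2 fold change of the 8 enzymes was 0.18, 0.27 and -0.07 in these comparisons, against 0.00 over all tested genes. The median absolute log2 fold change was 0.32, 0.37 and 0.30 for the 8 enzymes, against 0.25, 0.32 and 0.27 over all genes. CPM values did not overlap between the lines for 6, 5 and 6 of the 8 enzymes, against 50.3%, 59.0% and 53.5% of all genes. The 2 comparisons with CT share the CT libraries, and their values are given side by side for each enzyme.

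**Figure D1:**
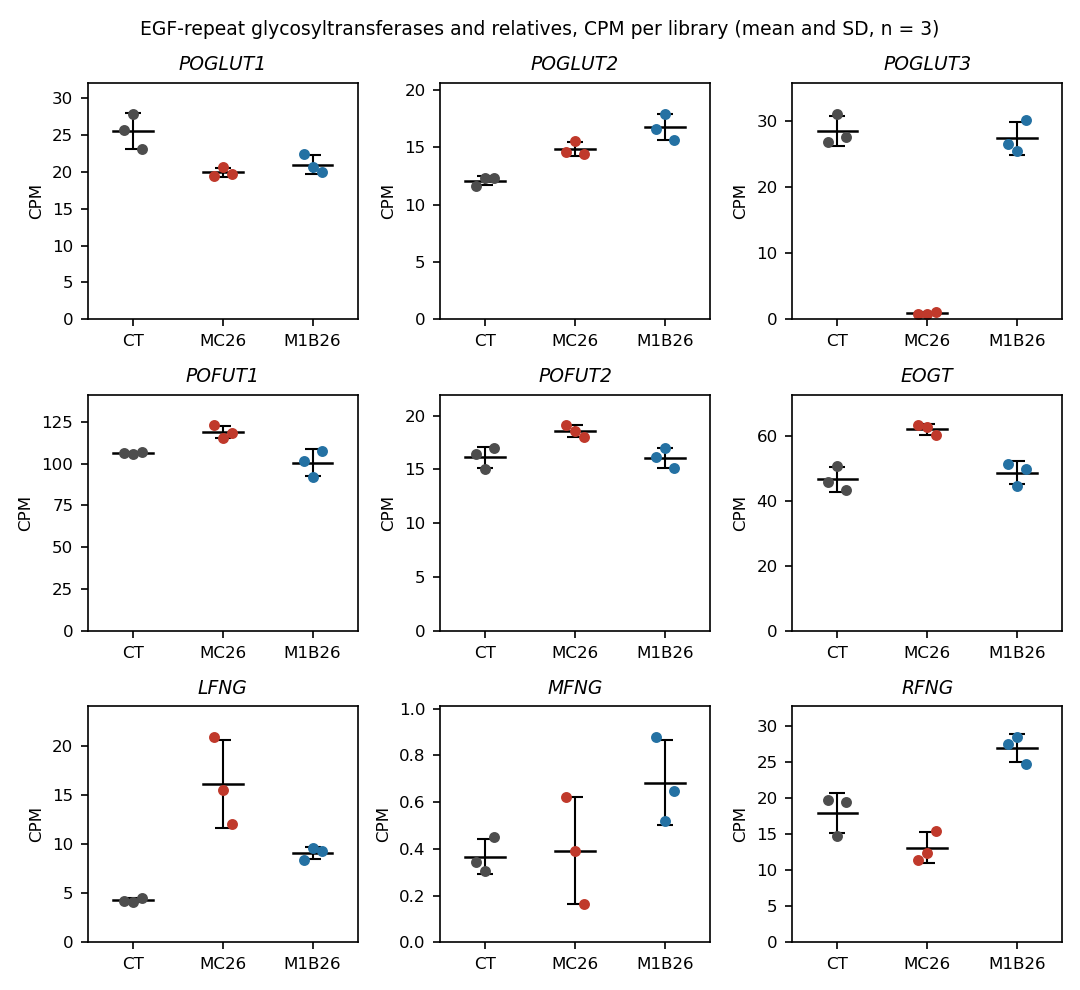
CPM of the 9 enzyme genes in each library of CT, MC26 and M1B26 (points), with the mean (long bar) and SD (whiskers) of 3 libraries; each vertical axis starts at 0. POGLUT3 lies between 0.863 and 1.11 CPM in MC26 and above 25 CPM in the other libraries, and LFNG is lowest in CT.

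POGLUT3 (chr11:108472112-108498405, minus strand, GRCh38) encodes an O-glucosyltransferase that modifies EGF repeats of Notch and fibrillins at a position other than that used by POGLUT1. It had 1872, 711 and 2263 counts in the CT libraries, 35, 33 and 47 in the MC26 libraries and 1177, 1072 and 1633 in M1B26. In CPM, which correct for library size, these were 26.8, 31.1 and 27.6 in CT, 0.870, 0.863 and 1.11 in the MC26 libraries and 26.5, 25.4 and 30.2 in M1B26. All 3 MC26 libraries thus lay far below the other 6, whereas CT and M1B26 overlapped. Mean levels were 28.5 ± 2.28 CPM in CT, 0.946 ± 0.138 in the MC26 libraries and 27.4 ± 2.5 in M1B26 (SD, n = 3), so that MC26 held 3.32% of the CT level. The fitted log2 fold changes were -4.90 (SE 0.13) for MC26 against CT, -0.05 (SE 0.10) for M1B26 against CT and 4.85 (SE 0.13) for M1B26 against MC26. Among 10637 genes averaging 5 CPM or more, the log2 fold change in MC26 against CT ranked as number 3 from the lowest, and that in M1B26 against MC26 as number 1 from the highest. Over all 15717 tested genes these ranks were 49 from the lowest and 44 from the highest.

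Upstream sequence from RefSeq (GRCh38.p14) was found for 7 of the 9 genes, EOGT and MFNG being the others. The stretches just upstream of POGLUT3 and of POGLUT2, its close relative with the same kind of activity, are shown because these enzymes share a function while their RNAs stood apart in MC26. They are written 5′ to 3′ on the minus strand, where both genes lie, with CpG dinucleotides in capitals, and end next to the annotated gene start.
POGLUT3, chr11:108498406-108498634: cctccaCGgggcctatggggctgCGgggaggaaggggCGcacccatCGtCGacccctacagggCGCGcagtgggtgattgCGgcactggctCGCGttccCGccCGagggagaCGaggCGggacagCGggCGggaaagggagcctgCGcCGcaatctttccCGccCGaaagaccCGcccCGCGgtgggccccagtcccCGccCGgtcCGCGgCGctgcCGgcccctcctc
POGLUT2, chr13:102799041-102799226: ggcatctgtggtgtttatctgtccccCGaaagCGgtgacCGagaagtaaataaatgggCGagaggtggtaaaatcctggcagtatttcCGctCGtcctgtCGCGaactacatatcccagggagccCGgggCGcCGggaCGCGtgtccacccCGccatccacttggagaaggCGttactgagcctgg
The printed stretches held 29 (POGLUT3) and 15 (POGLUT2) CpG dinucleotides. The windows counted next were longer, since the RefSeq start of both genes lies inside the annotated gene. In the 250 bases before the RefSeq start, POGLUT3 had 34 CpG dinucleotides, more than 93.4% of 27305 promoters of the same length, whose median was 11. POGLUT2 had 21, POGLUT1 had 13, POFUT1 had 41, POFUT2 had 33 and RFNG had 35, whereas LFNG had 8 and 6 before its 2 annotated starts. POFUT1 and RFNG thus had more CpG dinucleotides than POGLUT3, and POFUT2 nearly as many. On either strand, the letters TTCNNNGAA (a STAT site, searched because IL6 acts through STAT factors) were found in none of the 8 member windows and in 6.78% of all promoters. The letters TGGGAA (the core of a site for RBPJ, the DNA-binding partner of Notch, which can share letters with a STAT site) were in the windows of POGLUT1, POFUT2 and the other start of LFNG, and in 21.1% of all promoters. The letters GGCGCC (a site for SMAD factors, which carry BMP signals) were in the windows of POGLUT2 and POFUT2, and in 16.1% of all promoters. Such matches describe the letters alone, and binding was not measured.

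POGLUT2 (chr13:102784281-102799040) rose in both transformed lines. It measured 11.6, 12.3 and 12.3 CPM in CT, 14.5, 15.5 and 14.4 in the MC26 libraries and 16.6, 17.9 and 15.6 in M1B26. Every MC26 and M1B26 library was above every CT library, and the M1B26 libraries were above those of MC26. Log2 fold changes were 0.30 (SE 0.08, adjusted p 0.0145) for MC26 against CT and 0.47 (SE 0.08, adjusted p 0.000736) for M1B26 against CT. Between the transformed lines the value was 0.17 (SE 0.08, adjusted p 0.112), which did not pass. The rise in MC26 missed the threshold without CT replicate 1 (0.27, adjusted p 0.0651), without MC26 replicate 2 (0.27, adjusted p 0.0565) and with total counts in place of scaling factors (0.22, adjusted p 0.0582).

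POGLUT1 (chr3:119468963-119494708), which adds O-glucose at the classical site of EGF repeats and is needed for Notch signalling in animals, fell in both transformed lines. Its levels were 25.6, 27.8 and 23.1 CPM in CT, 19.5, 20.6 and 19.6 in the MC26 libraries and 22.3, 20.6 and 19.9 in M1B26. All 6 transformed libraries were below the lowest CT library, and MC26 and M1B26 overlapped. Log2 fold changes were -0.35 (SE 0.09, adjusted p 0.00772) for MC26 against CT, -0.28 (SE 0.08, adjusted p 0.0188) for M1B26 against CT and 0.07 (SE 0.09, adjusted p 0.518) for M1B26 against MC26. The fall in M1B26 missed the threshold without CT replicate 1 (-0.28, adjusted p 0.0553), without M1B26 replicate 2 (-0.26, adjusted p 0.0612) and without M1B26 replicate 3 (-0.24, adjusted p 0.069).

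Levels of the 9 enzyme genes were compared with each other only as CPM per kilobase (kb) of exon. Exon length was that of all annotated exons of a gene merged, whichever transcripts were expressed. The order, shares and sums below rest on that length. On that scale POGLUT3 was the most abundant O-glucosyltransferase gene in CT, at 4.05 ± 0.324, followed by POGLUT1 at 3.6 ± 0.338 and POGLUT2 at 1.65 ± 0.0537 (SD, n = 3). The SD ranges of POGLUT3 and POGLUT1 in CT overlapped, as did those of POGLUT3 and RFNG (4.66 ± 0.718), and POGLUT2 lay below them. In MC26 the order was POGLUT1 at 2.82 ± 0.0892, POGLUT2 at 2.02 ± 0.0809 and POGLUT3 at 0.135 ± 0.0197. POGLUT3 made up 70.6%, 72.5% and 70.1% of the sum of POGLUT2 and POGLUT3 in the CT libraries, 5.88%, 5.49% and 7.41% in the MC26 libraries and 62.5%, 59.7% and 66.8% in M1B26. That sum was 5.70 ± 0.358 CPM per kb in CT, 2.16 ± 0.0723 in the MC26 libraries and 6.17 ± 0.222 in M1B26 (SD, n = 3). The sum over POGLUT1, POGLUT2 and POGLUT3 was 9.29 ± 0.616 CPM per kb in CT, 4.97 ± 0.157 in the MC26 libraries and 9.14 ± 0.146 in M1B26. These sums contain POGLUT3 and were not tested.

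**Figure D2:**
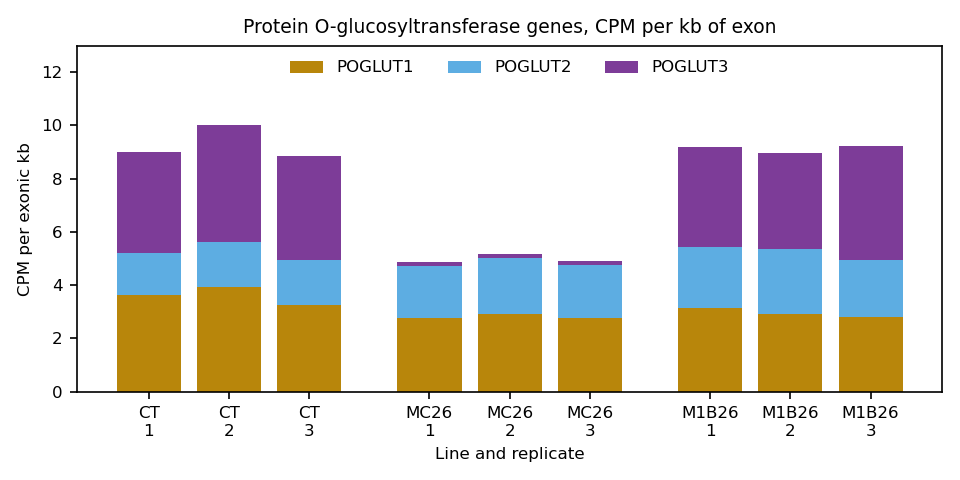
CPM per kb of exon of POGLUT1, POGLUT2 and POGLUT3, stacked for each library of CT, MC26 and M1B26. The MC26 stacks reach 4.86 to 5.15, almost without POGLUT3, and those of the other lines 8.87 to 10.0.

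POFUT1 (chr20:32207855-32238658), which adds O-fucose to EGF repeats, was the most abundant of the 9 genes in every line, at 16.0 ± 0.0929 CPM per kb in CT, 17.9 ± 0.567 in the MC26 libraries and 15.1 ± 1.2 in M1B26 (SD, n = 3). In CPM it measured 106.4, 105.6 and 106.8 in CT, 122.8, 115.3 and 118.4 in the MC26 libraries and 101.6, 91.9 and 107.7 in M1B26. The MC26 libraries were the highest, and CT and M1B26 overlapped. POFUT1 was lower in M1B26 than in MC26 (log2 fold change -0.24, SE 0.07, adjusted p 0.0157). That call was lost without MC26 replicate 1 (-0.22, adjusted p 0.0586) and without M1B26 replicate 2 (-0.18, adjusted p 0.0681). Against CT the log2 fold changes of 0.16 (MC26, adjusted p 0.0844) and -0.08 (M1B26, adjusted p 0.340) did not pass.

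POFUT2 (chr21:45263928-45287898) adds O-fucose to thrombospondin repeats and not to EGF repeats. It measured 15.1 to 16.97 CPM in CT, 18 to 19.1 in the MC26 libraries and 15.1 to 16.95 in M1B26. The MC26 libraries were again above the others, but no comparison passed. Log2 fold changes were 0.20 (SE 0.08, adjusted p 0.0743) for MC26 against CT, -0.01 (SE 0.08, adjusted p 0.903) for M1B26 against CT and -0.21 (SE 0.08, adjusted p 0.0575) for M1B26 against MC26. The last of these passed with DESeq2 (adjusted p 0.0466), with total counts (adjusted p 0.0362) and without CT replicate 2 (adjusted p 0.0292).

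EOGT (chr3:68975217-69013684), which attaches N-acetylglucosamine to EGF repeats, rose in MC26 alone of the derived lines, and the difference between these lines passed its own test. Its levels were 45.7, 50.8 and 43.4 CPM in CT, 63.2, 62.6 and 60.1 in the MC26 libraries and 51.4, 44.7 and 49.96 in M1B26. The 3 MC26 libraries were above the other 6, and CT and M1B26 overlapped. Log2 fold changes were 0.41 (SE 0.08, adjusted p 0.00183) for MC26 against CT, 0.07 (SE 0.08, adjusted p 0.517) for M1B26 against CT and -0.35 (SE 0.08, adjusted p 0.00499) for M1B26 against MC26. EOGT ranked number 2 of the 9 genes per kb in every line, from 8.69 ± 0.711 in CT to 11.6 ± 0.305 CPM per kb in MC26 (SD, n = 3).

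LFNG (chr7:2512529-2529177), the Fringe enzyme best known from the segmentation clock, had the largest fold change of the 8 enzymes in both comparisons with CT. It measured 4.22, 4.15 and 4.56 CPM in CT, 20.9, 15.5 and 12 in the MC26 libraries and 8.39, 9.59 and 9.29 in M1B26. The 3 lines did not overlap, with CT lowest and MC26 highest and most spread. Log2 fold changes were 1.90 (SE 0.18, adjusted p 1.56e-05) for MC26 against CT, 1.07 (SE 0.18, adjusted p 0.000523) for M1B26 against CT and -0.83 (SE 0.17, adjusted p 0.00282) for M1B26 against MC26. Per kb of exon LFNG moved from number 8 of the 9 genes in CT (1.25 ± 0.0646 CPM per kb) to number 3 in MC26 (4.69 ± 1.30) and number 7 in M1B26 (2.64 ± 0.182; SD, n = 3). In MC26 its SD range overlapped with the level of RFNG (3.41 ± 0.544), so the order of these neighbours was not separated by their spread.

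RFNG (chr17:82047902-82051831) went the other way from LFNG between the transformed lines. Its levels were 19.8, 14.8 and 19.4 CPM in CT, 11.5, 12.4 and 15.5 in the MC26 libraries and 27.6, 28.5 and 24.7 in M1B26. M1B26 was above all other libraries, and CT and MC26 overlapped through CT replicate 2 and MC26 replicate 3. Log2 fold changes were 0.57 (SE 0.13, adjusted p 0.00424) for M1B26 against CT and 1.03 (SE 0.13, adjusted p 0.000203) for M1B26 against MC26. For MC26 against CT the value was -0.46 (SE 0.13, adjusted p 0.0184), and this call was lost without CT replicate 1 (-0.39, adjusted p 0.0821), without CT replicate 3 (-0.40, adjusted p 0.0658), without MC26 replicate 1 (-0.37, adjusted p 0.0746) and without MC26 replicate 2 (-0.42, adjusted p 0.0709). RFNG lies on chromosome 17, where the median log2 fold change of 850 other tested genes was 0.48 in M1B26 against CT, 0.48 in M1B26 against MC26 and 0.00 in MC26 against CT. RFNG differed from these medians by 0.09, 0.56 and -0.46, and the part of the chromosome-wide shift in its values was not tested. It also shares 1141 of its 3930 bases with GPS1 on the opposite strand, which had 1713 to 9160 counts per library and log2 fold changes of 0.90 (adjusted p 7.41e-05) against CT and 0.70 (adjusted p 0.000643) against MC26 in M1B26. The strandedness of the counting is not given in the sources used here, so reads of RFNG and GPS1 in the shared part may not have been told apart.

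MFNG (chr22:37469063-37486393), the remaining Fringe gene, was barely detected, with 7 to 39 counts per library. Its levels were 0.343, 0.306 and 0.451 CPM in CT, 0.622, 0.392 and 0.165 in the MC26 libraries and 0.879, 0.521 and 0.646 in M1B26. The M1B26 libraries were above those of CT and overlapped with those of MC26. The log2 fold changes were 0.04 (SE 0.42, adjusted p 0.952) for MC26 against CT, 0.84 (SE 0.38, adjusted p 0.0914) for M1B26 against CT and 0.80 (SE 0.40, adjusted p 0.130) for M1B26 against MC26. None passed, which with standard errors of this size does not show that MFNG was unchanged. M1B26 against CT passed without MC26 replicate 3 (adjusted p 0.0374) and in a fit of only the 6 libraries compared (adjusted p 0.0316), and M1B26 against MC26 passed without MC26 replicate 1 (1.31, adjusted p 0.035).

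**Figure D3:**
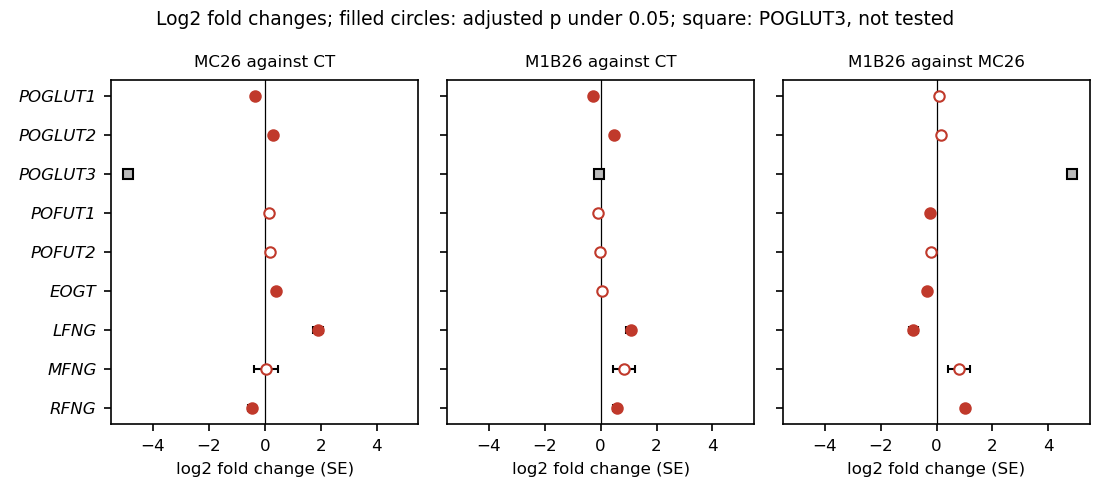
Log2 fold changes of the 9 enzyme genes in the 3 comparisons, with standard errors, which are hidden by the symbols where small. POGLUT3 (squares, not tested) stands at -4.90 and 4.85 in the comparisons with MC26, while the other genes lie between -0.83 and 1.90.

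The genes around POGLUT3 were looked at to see whether they moved as well. Within 1 Mb there were 17 annotated genes with a symbol in the table, and 8 had enough counts to be tested. In MC26 against CT their log2 fold changes ran from -0.38 to 0.12, with a median of -0.10, and 2 of the 8 fell, beside 19.9% of all tested genes, whereas POGLUT3 stood at -4.90. EXPH5, a Rab effector in membrane traffic whose gene lies 7.0 kb from POGLUT3, measured 11.9 CPM in CT and 9.19 in MC26 (log2 fold change -0.36, adjusted p 0.0441). ACAT1, a mitochondrial thiolase, fell by 0.38 (adjusted p 0.00134). On the other side of EXPH5, the RNA helicase gene DDX10 stood at 0.00 (adjusted p 0.970). The DNA damage kinase ATM at -0.24 (adjusted p 0.103), the histone gene regulator NPAT at -0.01 (adjusted p 0.934) and the ubiquitin ligase scaffold CUL5 at -0.16 (adjusted p 0.161) did not pass. In M1B26 against CT, where POGLUT3 was at -0.05, 4 of the 8 fell, beside 23.7% of all tested genes: EXPH5 by 0.79 (adjusted p 0.000529), ATM by 0.65 (adjusted p 0.000588), NPAT by 0.34 (adjusted p 0.0241) and CUL5 by 0.25 (adjusted p 0.0319). Leaving out 1 library ended the call for EXPH5 in MC26 with any CT library but replicate 3, any MC26 library or M1B26 replicate 1 left out (adjusted p up to 0.13). It did so for NPAT in M1B26 with any M1B26 library (up to 0.0641) and for CUL5 with CT replicate 2 or M1B26 replicates 1 or 2 (up to 0.0989).

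**Figure D4:**
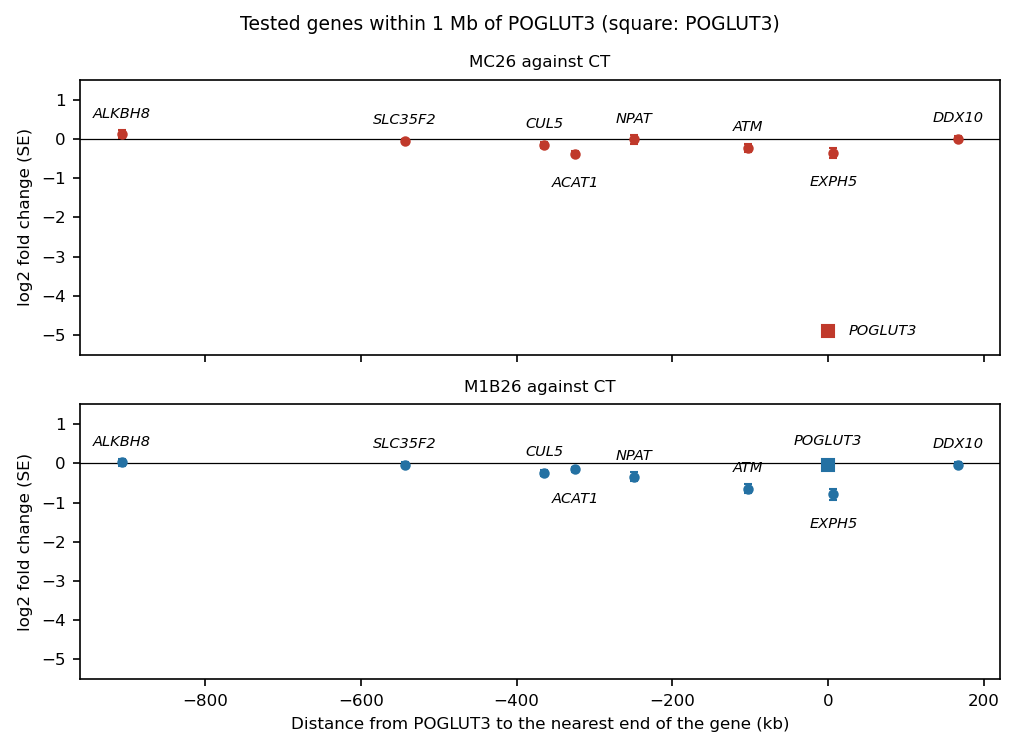
Log2 fold changes with standard errors of the 8 tested genes within 1 Mb of POGLUT3 (circles) and of POGLUT3 (square) against the distance in kb, negative towards lower coordinates, for MC26 (upper panel) and M1B26 (lower panel) against CT. In MC26 the neighbours lie between -0.38 and 0.12 and POGLUT3 at -4.90.

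The genes whose profile over the 9 libraries was most like that of POGLUT3 were GLDC, EPCAM, SORT1, KIF7 and GLS2. Likeness was the root mean square distance between log2(CPM + 0.5) profiles, each centred on its mean, over 10637 genes averaging 5 CPM or more. The distance was 0.492 for GLDC (glycine decarboxylase), 0.974 for EPCAM (an epithelial adhesion molecule), 0.982 for SORT1 (a sorting receptor), 0.984 for KIF7 (a kinesin of the primary cilium) and 1.1 for GLS2 (a glutaminase). The POGLUT3 profile itself had a root mean square of 2.03. GLDC averaged 35.1 CPM in CT and 3.302 in MC26, and EPCAM 70.4 and 14.8, so both kept more of their CT level in MC26 than POGLUT3 did. In M1B26 GLDC averaged 37.6 CPM, EPCAM 72.1 and GLS2 7.08 (8.87 in CT), each overlapping with CT. SORT1 averaged 15.6 CPM in M1B26 against 45.7 in CT, and KIF7 9.20 against 4.95. SORT1 and KIF7 thus stood apart from CT in M1B26, unlike POGLUT3. These genes were picked for their pattern, which was therefore not tested.

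The enzymes that lengthen O-glucose and O-fucose were read as the next step of the pathway. In MC26 against CT 3 of 5 changed. Here and in the lists that follow, counts stand beside the 38.7% of all tested genes that changed in MC26 against CT, the 48.9% in M1B26 against CT and the 39.5% between the derived lines. GXYLT1, which adds xylose to O-glucose, fell by 0.51 (adjusted p 0.0028) in MC26 cells and by 0.87 (adjusted p 6.4e-05) in M1B26. B4GALT1, a galactosyltransferase that acts after Fringe, fell by 0.41 (adjusted p 0.0081) and 0.61 (adjusted p 0.000545). Both genes fell in both derived lines, and any link with the level of POGLUT3 was not tested. B3GLCT, which adds glucose to O-fucose on thrombospondin repeats, rose by 0.31 in MC26 (adjusted p 0.0418), a call lost when any CT library, MC26 replicates 1 or 2 or M1B26 replicate 1 was left out (adjusted p up to 0.144), with total counts, with no filter and in a fit of only the 6 libraries compared. GXYLT2 and XXYLT1, which add xylose, did not pass, at 0.32 (adjusted p 0.104) and 0.02 (adjusted p 0.887) in MC26 cells and 0.22 (adjusted p 0.231) and -0.10 (adjusted p 0.290) in M1B26. Between M1B26 and MC26 only GXYLT1 of the 5 differed (-0.35, adjusted p 0.02), a call lost without MC26 replicate 2 or M1B26 replicates 1 or 2 (up to 0.079).

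Of 17 genes that make or carry the sugar nucleotides used by these enzymes, 8 changed in MC26 against CT (7 higher) and 8 in M1B26 against CT (5 higher), beside 38.7% and 48.9% of all tested genes. The median log2 fold change was 0.18 and 0.04, against 0.00 over all genes. UGP2, which makes UDP-glucose, the donor of the POGLUT enzymes, rose from 82.1 to 227 CPM in the MC26 libraries and 161 CPM in M1B26 (log2 fold changes 1.47 and 0.97, adjusted p 6.74e-05 and 0.000692). UAP1, which makes UDP-N-acetylglucosamine, the donor of EOGT and the Fringes, rose from 152 to 286 and 233 CPM (0.91 and 0.62, adjusted p 3.35e-05 and 0.000305). TSTA3 (now GFUS), which makes GDP-fucose, did not pass in either line (0.18 and 0.15, adjusted p 0.215 and 0.259).

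Among proteins that carry the sugars, 5 of 7 tested Notch receptors and ligands changed in each comparison with CT, 3 higher and 2 lower. NOTCH2, the most abundant by CPM, fell by 0.30 in MC26 (adjusted p 0.0186, lost without CT replicate 3 or MC26 replicate 2, up to 0.0701) and by 0.60 in M1B26 (adjusted p 0.000244), while JAG1 rose by 0.65 and 0.36 (adjusted p 0.000176 and 0.00434). The largest changes of the list, named after their values were seen, were in genes of low level. NOTCH3 averaged 3.10 CPM in CT, 0.116 in the MC26 libraries and 1.23 in M1B26 (log2 fold changes -4.76 and -1.35 against CT, adjusted p 0.000254 and 0.0306). Its call in M1B26 was lost without CT replicate 3 (-0.84, adjusted p 0.168) and without M1B26 replicate 1 or 2 (adjusted p 0.113 each). DLL1 rose by 1.90 and 3.45 (adjusted p 0.000929 and 8.66e-06), from 0.622 CPM in CT to 2.20 in the MC26 libraries and 6.43 in M1B26. Of 4 tested Notch target genes 2 changed: HEY1 rose by 1.24 and 1.23 (adjusted p 7.53e-05 and 5.06e-05), and NRARP fell by 1.83 and 1.21 (adjusted p 0.000127 and 0.000939), in MC26 and M1B26. HES1, the most abundant of the 4 by CPM, did not pass in MC26 (-0.01, adjusted p 0.971) or M1B26 (-0.11, adjusted p 0.428). HES4 did not pass either (-0.48 and -0.03, adjusted p 0.186 and 0.934).

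Fibrillins and latent TGF-beta binding proteins (LTBPs), matrix proteins built mainly of EGF repeats, include known substrates of POGLUT2 and POGLUT3. Of 6 tested, 4 changed in MC26 against CT (2 higher, 2 lower) and 5 in M1B26 against CT (2 higher, 3 lower). FBN2 measured 235 CPM in CT, 505 in the MC26 libraries and 513 in M1B26 (log2 fold changes 1.1 and 1.13, adjusted p 2.03e-05 and 1.15e-05). LTBP1 measured 76.1, 393 and 282 CPM (2.37 and 1.89, adjusted p 2.82e-08 and 9.33e-08), and was lower in M1B26 than in MC26 (-0.48, adjusted p 0.000944). LTBP2 fell by 1.22 in M1B26 (adjusted p 3.48e-05) and stood at -0.12 in MC26 (adjusted p 0.519). LTBP4 did not pass in either line. The fibrillin gene FBN1 (-1.29 and -1.17, adjusted p 9.26e-05 and 0.000103) and LTBP3 (-1.15 and -1.58, adjusted p 0.000133 and 9.86e-06), named after their values were seen, fell in both transformed lines. The median of the list was -0.11 in MC26 and -0.70 in M1B26, with members that rose and members that fell in each line.

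Other carriers were mixed. Of 9 tested thrombospondin repeat proteins, which POFUT2 modifies, 3 changed in MC26 against CT, all higher, and 5 in M1B26 against CT, 3 higher and 2 lower. THBS1, a matrix glycoprotein, rose by 1.18 in MC26 (adjusted p 0.000538) and stood at -0.43 in M1B26 (adjusted p 0.0714), and it was lower in M1B26 than in MC26 (-1.61, adjusted p 9.31e-05). Of 7 other tested EGF repeat proteins 2 changed in MC26, both lower, and 5 in M1B26, 2 higher and 3 lower. The lower ones in MC26 were the planar polarity cadherins CELSR1 at -0.59 (adjusted p 0.00083) and CELSR2 at -1.19 (adjusted p 0.000315). Both were lower in M1B26 too, CELSR1 at -1.01 (adjusted p 1.54e-05) and CELSR2 at -0.90 (adjusted p 0.00117). Agrin (AGRN), the most abundant of that list by CPM, stood at -0.05 (MC26, adjusted p 0.807) and -0.37 (M1B26, adjusted p 0.057).

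As a comparison from outside the EGF-repeat pathway, 4 of 8 other protein O-glycosyltransferase genes changed in MC26 against CT, 2 in each direction, and 1 in M1B26 against CT. COLGALT1, which glycosylates collagen, rose by 0.48 and 0.28 (adjusted p 0.000829 and 0.0114), and POMT1, an O-mannosyltransferase, fell by 0.68 in MC26 (adjusted p 0.000208). Between M1B26 and MC26, 3 of these 8 genes changed, all higher in M1B26. Of the 8 EGF-repeat and thrombospondin repeat enzymes, 5 changed in MC26 against CT, 4 in M1B26 against CT and 4 between the derived lines. Over all tested genes the shares were 38.7%, 48.9% and 39.5%. The difference between the lists was not tested.

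**Figure D5:**
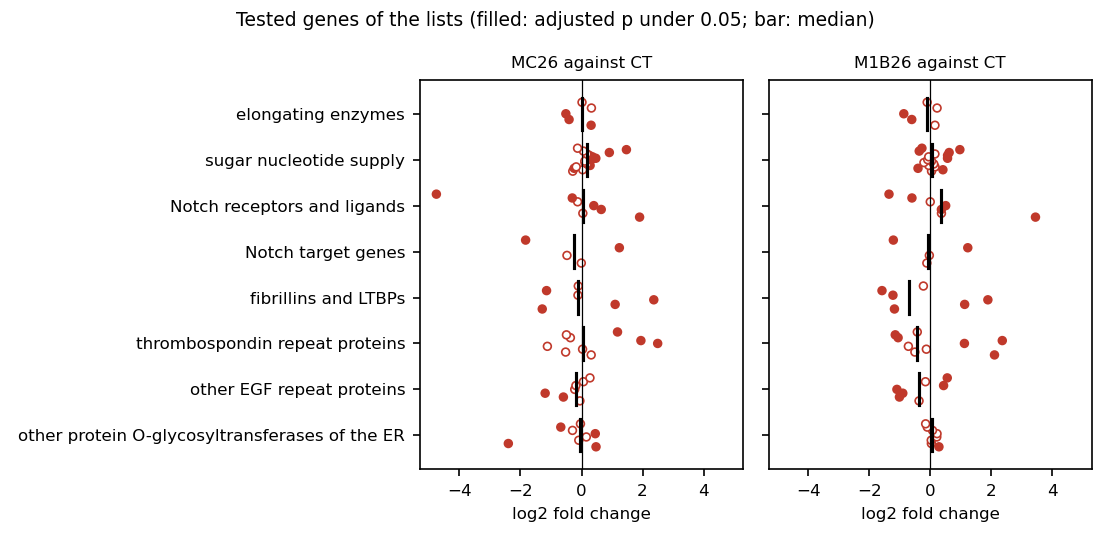
Log2 fold changes of the tested genes of 8 lists (points, filled where the adjusted p is under 0.05) in MC26 and M1B26 against CT. A bar marks the median of each list, and the list of other O-glycosyltransferases is from outside the EGF-repeat pathway. The medians lie between -0.70 and 0.36, and members of the Notch, fibrillin and thrombospondin repeat lists lie on both sides of 0.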

How the data were processed

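Poly-A RNA libraries of 3 lines, 3 per line, were sequenced in paired-end mode. The deposited table holds raw counts for each gene symbol, which the authors derived from reads aligned to GRCh38 with STAR 2.7.3a. The methods name Salmon 1.1.0 with protein-coding genes for quantification, whereas the table holds whole numbers and non-coding genes too, so the program behind this table is not certain. Its strandedness is not given in the sources used here. Sample titles gave the line and the replicate number.

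The test was the quasi-likelihood test of edgeR 4.0.16 (R 4.3.3), with line as the term, all 9 libraries, genes kept by filterByExpr at a minimum count of 10, and TMM factors of 0.968 to 1.07. The biological coefficient of variation came to 10.4%. P-values are 2-sided and were adjusted over 15717 genes by Benjamini-Hochberg (threshold 0.05). CPM used TMM-scaled library sizes. SE values are |log2 fold change| over the root of the F statistic. The script was tested on simulated data. Positions and exonic lengths came from GENCODE 44, which matched 36923 symbols by current and 497 by older name.

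All 9 enzymes were named, with at most 4 genes per list by mean CPM, all lengthening enzymes, up to 4 tested genes on each side of POGLUT3 and the 5 most alike profiles. NOTCH3, DLL1, FBN1 and LTBP3 were added after their values were seen. The members and lists were chosen with earlier results of these data known. Alternatives tried were total counts, RLE factors, TMM without chromosome 17, DESeq2 1.42.0, a filter at a mean of 50 counts, no filter, fits of only the 6 libraries compared, a replicate block and leaving out each library. For genes other than the 9 enzymes they were added after the data were seen.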

Additional observations from a re-analysis of the deposited data

Results flagged for a closer look

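By the edgeR test of M1B26 against MC26, the effects of the 2 transformed lines against CT differed for 24 of 53 genes. This stands beside 39.5% of all tested genes. The 53 were the 8 enzymes other than POGLUT3, genes picked from the lists and tested neighbours of POGLUT3, and not all were named above. They include NOTCH3, DLL1, FBN1 and LTBP3, which were added after their values were seen. All values are log2 fold changes, negative where M1B26 was lower. Among the enzymes, those that differed were POFUT1 at -0.24, EOGT at -0.35, LFNG at -0.83 and RFNG at 1.03. Each had no overlap between the 3 libraries of the lines, as had 53.5% of all tested genes.

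Among the genes of the lists, those that differed were GXYLT1 at -0.35, UAP1 at -0.29, UGP2 at -0.50, GNPNAT1 at -0.33, NOTCH2 at -0.30, JAG1 at -0.28, LTBP1 at -0.48, LTBP2 at -1.11, THBS1 at -1.61, CCN1 at -0.69, ADAMTS1 at 1.79, CELSR1 at -0.42, POMT1 at 0.58, NOTCH3 at 3.40, DLL1 at 1.54 and LTBP3 at -0.44. Among the neighbours of POGLUT3 they were ACAT1 at 0.23, NPAT at -0.33, ATM at -0.41 and EXPH5 at -0.43. Leaving out 1 MC26 or M1B26 library ended the call for POFUT1 (adjusted p up to 0.0681), GXYLT1 (0.079), UAP1 (0.11), UGP2 (0.125), GNPNAT1 (0.0849), NOTCH2 (0.071), JAG1 (0.0864), LTBP3 (0.152), ACAT1 (0.082), NPAT (0.0919), ATM (0.0524) and EXPH5 (0.0892).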

How the results depend on the processing

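Of 405 refits of the 8 enzymes, 379 kept the direction and the side of the threshold, 12 lost a call, 6 gained a call and 8 turned the direction, all of the last in values that did not pass. The turned values were MFNG in MC26 against CT at -0.031 with total counts and, with 1 library left out, at values of -0.46 (MC26 replicate 1), -0.032 (CT replicate 1) and -0.026 (CT replicate 2) in a range of -0.46 to 0.42. POFUT2 in M1B26 against CT turned to 0.0053 with TMM factors computed without chromosome 17 genes, and to 0.023 without CT replicate 3 and 0.033 without M1B26 replicate 3 in a range of -0.062 to 0.033. EOGT in M1B26 against CT turned to -0.031 with total counts. The cause was not tested. When 1 library was left out, 3 to 5 enzymes passed in each comparison; in MC26 against CT 3 passed without CT replicate 1 and without MC26 replicate 2. With total counts, 35.8% of the changed genes were higher in MC26 against CT and 39.6% in M1B26 against CT, against 48.5% and 51.5% with TMM. With the replicate block 5, 4 and 4 enzymes and 5879, 7513 and 6009 of all genes passed. Deviations of same-numbered libraries correlated at -0.173 to 0.356, and 3 of 9 pairs were over 0.1. Libraries with different numbers correlated at -0.308 to 0.307. With 3 libraries per line, these values cannot decide whether equal numbers mark paired samples. With the block B3GLCT, GNPNAT1 and EXPH5 lost their calls in MC26 against CT and LTBP3 in M1B26 against MC26, and no other named call changed. The 7 to 39 counts of MFNG limit what its values can show.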
